A study of Tetranychus urticae with 4 samples.

Results

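The inositol pathway genes described here are 8 genes of the two-spotted spider mite Tetranychus urticae that the study places in inositol phosphate metabolism. They were chosen by gene ID, among 18217 genes with probes on a custom Agilent array. Each of the 8 has 3 probes, none of which is shared with another gene, and all 8 were detected well enough to be tested, together with 14978 further genes. Diapausing females (DIA) were compared with non-diapausing females (NON-DIA) of the laboratory strain LS-VL, a green strain kept on bean. Both kinds of female grew up from the larval stage in one regime of 17 °C, 80% relative humidity and 8 h of light with 16 h of dark, in which a share of the mites enters diapause and the rest does not. The DIA females were picked by the deep orange colour that marks diapause, in pools of 250 whole mites per replicate, and the NON-DIA females in pools of 100. By the paper's methods the females were collected after 3 weeks in this regime, which began once larvae had hatched. Their exact age in days is not given in the sources used here, and all replicates come from 1 strain. The paper describes a single population as the source of the RNA, so p-values measure the spread between pools drawn from it. On each of 4 two-colour arrays, 1 per biological replicate, DIA RNA carried Cy5 and NON-DIA RNA carried Cy3, and no array had the dyes swapped, so the effects of dye and of diapause cannot be told apart. As whole animals were extracted, a lower level of a transcript through fewer cells of a type cannot be told apart from less RNA per cell.

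Myo-inositol is a polyol that many overwintering arthropods accumulate, and it is also the head group of phosphoinositide lipids. Inositol monophosphatase (IMPA) removes the last phosphate from inositol monophosphates and so delivers free myo-inositol. Inositol oxygenase (MIOX) cleaves the ring of myo-inositol to give D-glucuronate, which takes the polyol out of the pool. Phosphatidylinositol phospholipase C (PLC) cuts the lipid phosphatidylinositol 4,5-bisphosphate into diacylglycerol and inositol 1,4,5-trisphosphate, and a phosphatase of that messenger (INPP5) takes off the phosphate at position 5. The 8 genes cover these 4 steps. Tetur32g01900 and tetur32g00400 are listed by the study as homologues of a fly IMPA, tetur19g00780 as MIOX, tetur05g05350 and tetur22g00790 as PLC and tetur08g02900 as INPP5. The identity of the other two is less certain. The study's text names tetur32g00440 as an IMPA orthologue where its list of homologues has tetur32g00400, and tetur02g10860 stands at the monophosphatase step in its pathway scheme where the list has tetur02g06900.

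In diapausing females, transcripts of the IMPA genes tetur32g01900 and tetur32g00400 were about 2-fold higher, and that of MIOX was 4.31-fold lower. Those of a PLC gene and an INPP5 gene were 2.09-fold and 2.45-fold higher, but other genes of both steps were lower. At an adjusted p under 0.05, 3 of the 6 listed PLC genes were higher and 3 lower. Of the 4 INPP5 genes 2 were higher and 2 lower, where 37.7% of all genes were higher and 27% lower. Of the other IMPA genes on the study's list, tetur04g01040 was slightly lower, at a mean log2 ratio of -0.25, and tetur02g06900 could not be tested. A gene was called differentially expressed when its log2 ratio of DIA over NON-DIA differed from 0 at an adjusted p under 0.05 and was at least 2-fold in size. The call fell on 4 of the 8 genes as upregulated (tetur32g01900, tetur05g05350, tetur08g02900 and tetur22g00790), where 9.04% of the 14986 genes tested were called upregulated. It fell on 1 as downregulated (tetur19g00780), where 9.1% of all genes were. With normexp background correction and loess normalization, or in a test for a change beyond 2-fold, 0 of these 4 genes were called upregulated. One of the 4, tetur22g00790, rests on a NON-DIA signal that was not above background. At an adjusted p under 0.05 with no condition on size, 6 members were higher and 2 lower, while 37.7% of all genes tested were higher and 27% lower at that threshold. The study picked several of these genes out on the same arrays, so these counts are not independent evidence of a direction. The median log2 ratio of the 8 members was 0.99, or 0.64 with tetur22g00790 set at its bound after normexp and loess. That of all genes was 0.11.

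**Figure D1:**
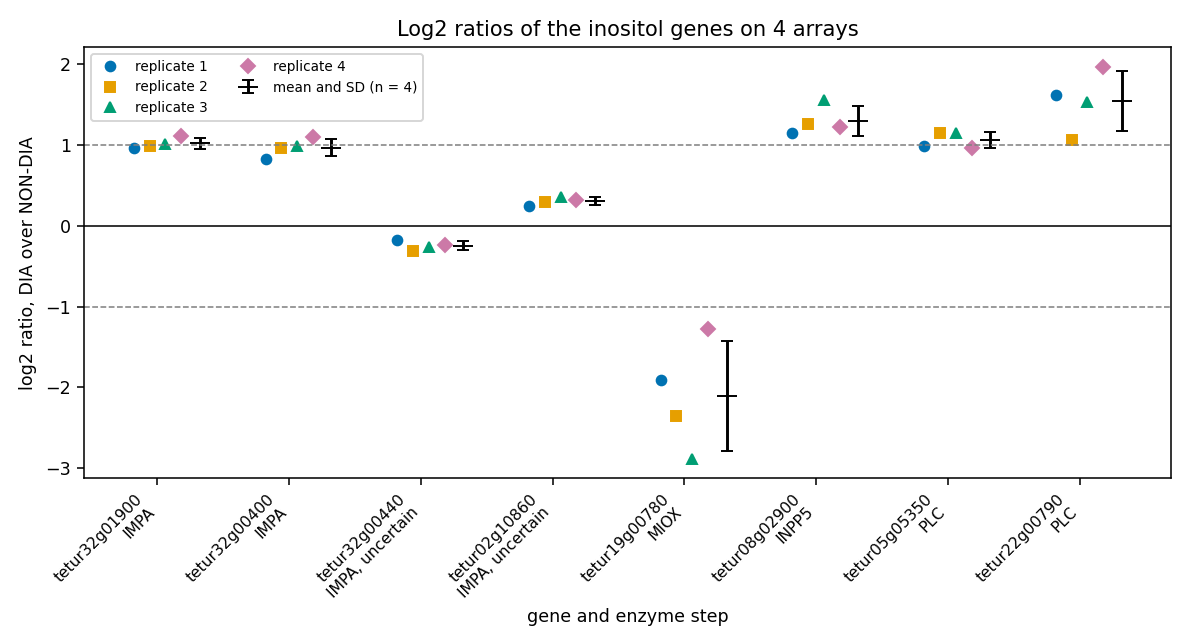
Log2 ratio of DIA over NON-DIA (vertical axis) for the 8 inositol genes on each of the 4 arrays (coloured symbols), with the mean and SD beside them. Dashed lines mark 2-fold in either direction. The 4 symbols of every gene lie on 1 side of 0, and MIOX, tetur19g00780, is the gene with the widest spread, from -2.88 to -1.28.

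At the step that releases free inositol, tetur32g01900 was higher in DIA on every array. Its processed signal in DIA was 9794, 8528, 9622 and 9879 on replicates 1 to 4. In NON-DIA it was 5010, 4294, 4790 and 4576. The lowest DIA signal thus lay well above the highest NON-DIA signal, and the arrays differed little. The log2 ratios were 0.97, 0.99, 1.01 and 1.11. Their mean was 1.02 ± 0.063 (SD, n = 4), which is 2.03-fold (limma, adjusted p = 0.000221). Replicate 4, the highest of the 4, decided the call, since without it the mean was 0.99 and no longer 2-fold. With normexp background correction and loess normalization of the median signals it was 0.93.

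The other listed homologue of the same fly IMPA, tetur32g00400, behaved much like tetur32g01900 but missed the 2-fold condition. Its DIA signal was 10144, 9597, 10450 and 10654 on replicates 1 to 4, against 5710, 4938, 5277 and 4986 in NON-DIA. The groups did not overlap, and replicate 1 had the smallest gap. The log2 ratios were 0.83, 0.96, 0.99 and 1.10, with a mean of 0.97 ± 0.109 (SD, n = 4), or 1.96-fold (limma, adjusted p = 0.000363). Without replicate 1 the mean was 1.01 and the gene was called upregulated. The 95% interval of the mean log2 ratio ran from 0.92 to 1.12 for tetur32g01900 and from 0.79 to 1.14 for tetur32g00400, so that 2-fold, a log2 ratio of 1, lay inside both. The difference between the log2 ratios of these 2 genes was 0.05 ± 0.058 (SD, n = 4), with a 95% interval from -0.04 to 0.14, and it was positive on all 4 arrays (0.01 to 0.14). The side of the 2-fold line on which each gene fell therefore rested on a difference smaller than its SD over the arrays.

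Tetur32g00440, whose ID lies close to that of tetur32g00400, was slightly lower in DIA. The paper's text reports tetur32g00440 as upregulated in diapause, a direction not seen here. The gene near 2-fold higher on these arrays was tetur32g00400, at 1.96-fold, the one in the study's list. Which of the 2 the text meant was not tested. Its DIA signal was 1682, 1472, 1572 and 1535 on replicates 1 to 4, against 1900, 1828, 1878 and 1803 in NON-DIA. The groups did not overlap, but the gap was narrow. The log2 ratios were -0.18, -0.31, -0.26 and -0.23, and the mean was -0.24 ± 0.057 (SD, n = 4; limma, adjusted p = 0.016), a change of 1.18-fold. Its 3 probes had mean log2 ratios of -0.47, -0.27 and 0.00, and the third and brightest of them missed the threshold (limma over all probes, adjusted p = 1.00). The negative sign also depended on the scaling, since the mean was 0.12 after scaling to the spike-in controls and 0.03 after normexp background correction with median centring. Without replicate 2, 3 or 4 the gene missed the threshold (limma, adjusted p = 0.0764, 0.0592 and 0.05002).

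Tetur02g10860 was slightly higher in DIA. Its DIA signal was 2355, 2387, 2477 and 2444 on replicates 1 to 4, against 1993, 1942, 1941 and 1956 in NON-DIA. Both groups were tight and did not overlap. The mean log2 ratio was 0.30 ± 0.047 (SD, n = 4; limma, adjusted p = 0.00719), or 1.23-fold, with values from 0.24 to 0.35 on the arrays. After scaling to the spike-in controls the mean was 0.67 and missed the threshold (limma, adjusted p = 0.0604).

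Tetur32g01900 and tetur32g00400 overlapped in their log2 ratios, and both lay above the 2 genes of less certain identity. The log2 ratio of tetur32g01900 exceeded that of tetur32g00440 by 1.26 ± 0.087 (SD, n = 4) and that of tetur02g10860 by 0.72 ± 0.057. That of tetur32g00400 exceeded the same 2 genes by 1.21 ± 0.143 and 0.66 ± 0.079. Tetur32g00440 lay 0.55 ± 0.091 below tetur02g10860. Each of these differences was several times its SD and had 1 sign on all 4 arrays. The 2 arms of a difference share the scaling of an array, and the difference between tetur32g01900 and tetur32g00440 ranged from 1.10 to 1.33 over the 21 other ways of processing. An exact sign-flip permutation test (two-sided) cannot go below p = 0.13 with 4 arrays, and all 6 pairs reached that value (0.146 after adjustment over 7 pairs, of which the pair of PLC genes is not reported because 1 gene is only bounded).

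**Figure D2:**
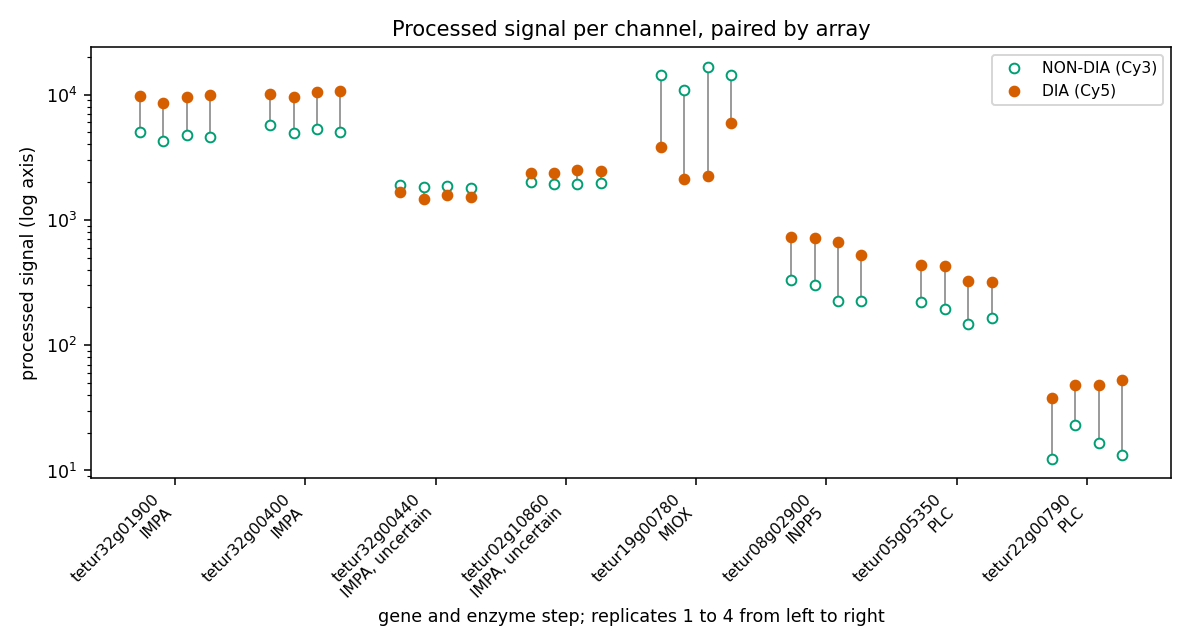
Processed signal (log axis) of the 8 genes in NON-DIA (open circles, Cy3) and DIA (filled circles, Cy5), with the channels of an array joined by a line and replicates 1 to 4 from left to right. Signals of different genes come from different probes and are not comparable as levels. Within each gene the ranges of the channels did not overlap, and for MIOX the DIA signal was lowest on replicates 2 and 3, at 2122 and 2255.

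MIOX, tetur19g00780, was lower in DIA on every array, and it was the only one of the 8 genes called downregulated. Its DIA signal was 3794, 2122, 2255 and 5874 on replicates 1 to 4. In NON-DIA it was 14290, 10878, 16602 and 14234. The highest DIA signal, on replicate 4, was still below the lowest NON-DIA signal, on replicate 2. The fall was 3.77-fold, 5.13-fold, 7.36-fold and 2.42-fold on the 4 arrays. The mean log2 ratio was -2.11 ± 0.68 (SD, n = 4; limma, adjusted p = 0.00191), a fall of 4.31-fold. Among all genes tested, 95.7% had a smaller mean log2 ratio in absolute size. The 3 probes gave -2.15, -2.13 and -2.04, so the spread was between arrays and not between probes. In a test for a change beyond 2-fold, the adjusted p was 0.0536 (limma). Among the 4 fits that leave out 1 replicate, the mean ran from -1.85 without replicate 3 to -2.38 without replicate 4.

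The log2 ratios of MIOX on the 4 arrays were set beside those of the yolk protein genes, which mark reproducing females. They shared the replicate with the smallest fall but not the order of the others. All 6 vitellogenin genes measured were lower in DIA, with mean log2 ratios from -9.22 to -7.74. The median over these 6 was -9.91, -8.04, -9.22 and -5.44 on replicates 1 to 4, so that replicate 4 had the smallest fall for vitellogenin as it had for MIOX. The order of the other 3 replicates was not shared, as vitellogenin fell most on replicate 1 and MIOX on replicate 3. Both measured genes of the muscle protein MSP300 were higher in DIA, with mean log2 ratios of 1.44 and 1.52 and medians of 1.20, 1.75, 1.62 and 1.36 on replicates 1 to 4. The part of reproductive state or tissue make-up in the inositol genes was not tested.

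Upstream of free inositol, at the step that releases inositol trisphosphate from the membrane, the PLC gene tetur05g05350 was higher in DIA. Its fly counterpart is Plc21C. The DIA signal was 433, 428, 326 and 320 on replicates 1 to 4, against 219, 193, 147 and 164 in NON-DIA. The groups did not overlap, and both channels were dimmer on replicates 3 and 4. The log2 ratios were 0.98, 1.14, 1.15 and 0.96, with a mean of 1.06 ± 0.101 (SD, n = 4), or 2.09-fold (limma, adjusted p = 0.000267). Its 3 probes gave 0.96, 1.04 and 1.18. With normexp and loess, the mean was 0.66 and the gene was no longer called.

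The second PLC gene, tetur22g00790, listed as a homologue of the fly gene small wing, was close to background. Its DIA signal was 38.1, 48.3, 48.0 and 52.3 on replicates 1 to 4, and its NON-DIA signal was 12.4, 23.2, 16.6 and 13.4. The channels did not overlap, but the NON-DIA signal was not well above background on any of the 4 arrays. The mean log2 ratio written by the scanner software was 1.54 ± 0.373 (SD, n = 4; limma, adjusted p = 0.000898). The NON-DIA level is only bounded. Set against the lowest signal well above background on each array, the bound after normexp and loess was 1.15-fold, a log2 ratio of 0.21. The gene was kept through DIA alone, so a bound above 0 was largely built in and is no evidence of a rise. With normexp and median centring its mean log2 ratio was 0.16, below that bound, and missed the threshold (limma, adjusted p = 0.121). The bound thus holds for 1 setting only. Only 2 of its 3 probes were bright enough to be kept, and these did not order the arrays alike, since one had log2 ratios of 2.60 on replicate 1 and 0.98 on replicate 4 and the other of 0.63 and 2.95. As the ratio of tetur22g00790 is only bounded, its difference from tetur05g05350 is not given as a measurement.

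INPP5, tetur08g02900, a homologue of the fly gene CG42283, was higher in DIA on every array. Its DIA signal was 729, 720, 661 and 527 on replicates 1 to 4, against 330, 301, 224 and 227 in NON-DIA. The groups did not overlap on any pair of arrays, and replicate 3 had the widest ratio. The log2 ratios were 1.14, 1.26, 1.56 and 1.22, and their mean was 1.29 ± 0.183 (SD, n = 4), or 2.45-fold (limma, adjusted p = 0.000336). The 3 probes gave 1.21, 1.29 and 1.38. With normexp background correction and loess the mean was 0.86, and the gene was no longer called.

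**Figure D3:**
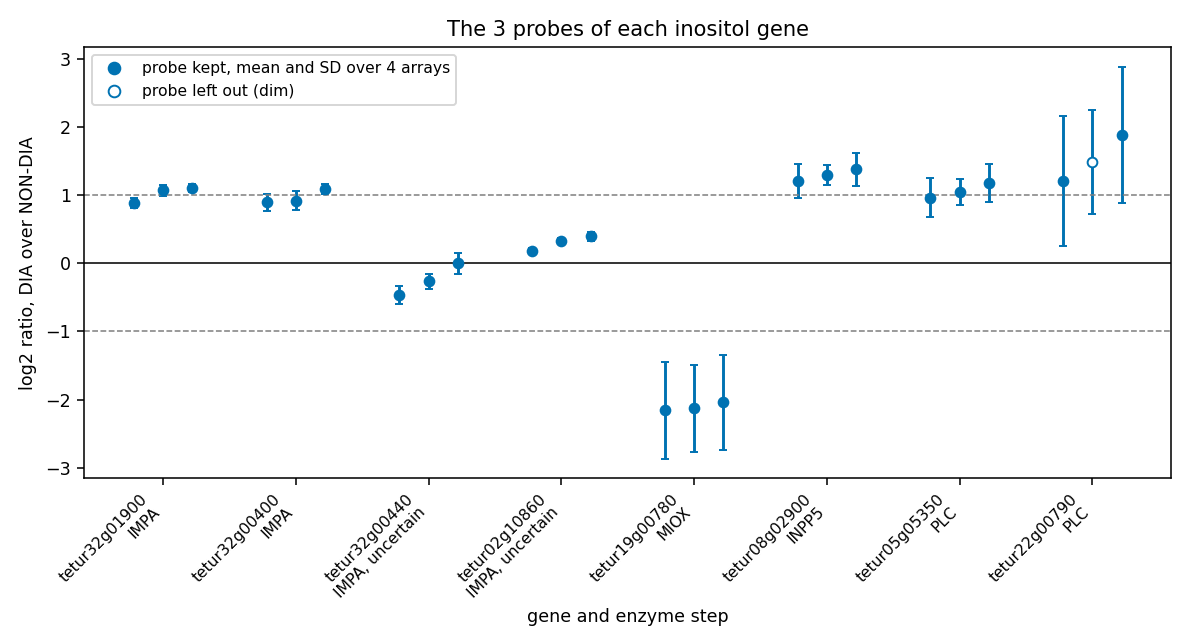
Mean log2 ratio of DIA over NON-DIA and its SD over 4 arrays for the 3 probes of each of the 8 genes, in rising order within a gene. The open circle is the probe of tetur22g00790 that was left out as dim. Probes of 1 gene lie close together except for tetur22g00790, and the probes of tetur32g00440 range from -0.47 to 0.00.

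Taken probe by probe, 17 of the 23 probes kept for the 8 genes were higher in DIA and 5 lower at an adjusted p under 0.05 (limma over all probes), where 35.8% of all 40346 probes kept were higher and 27% lower. The remaining probe was the one of tetur32g00440 given above. Beyond 2-fold as well, 10 member probes were higher and 3 lower, against 8.78% and 9.54% of all probes. Both kept probes of tetur22g00790 are among the 17 and the 10, although they had no NON-DIA signal well above background on any array and were kept through DIA alone. All 3 lower ones belonged to MIOX. Neither IMPA gene with a ratio near 2-fold had all of its probes on 1 side of that line, as their probes ran from 0.89 to 1.10 for tetur32g01900 and from 0.90 to 1.09 for tetur32g00400. The signals of the channels did not overlap in any of the 8 members, with DIA higher in 6 and lower in 2. One of the 6 is tetur22g00790, kept through DIA alone, so that its lack of overlap was largely built in. Among all genes tested the same held with DIA higher in 33.4% and lower in 24.7%, so a lack of overlap was common on these arrays.

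The other 9 genes of the study's list of homologues give the rest of these steps. Of them 8 were tested and none was called, where 9.04% of all genes were called upregulated and 9.1% downregulated. With 8 genes, no call is near those shares. Every gene of the list that was called is a member, and the members were chosen with earlier results of these arrays known. The lack of calls among the rest, and a median below that of the members, were thus largely built in. At an adjusted p under 0.05 without a condition on size 2 were higher and 6 lower (limma), against 37.7% and 27% of all genes. Their median log2 ratio was -0.29, where that of all genes was 0.11. The IMPA gene tetur02g06900 was not tested, because none of its 3 probes was well above background in either channel on any array. The remaining IMPA gene, tetur04g01040, had a mean log2 ratio of -0.25 ± 0.097 (SD, n = 4; limma, adjusted p = 0.0212), and its DIA and NON-DIA signals overlapped.

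Among the 6 listed PLC genes, 3 were higher and 3 lower in DIA at an adjusted p under 0.05, where 37.7% of all genes were higher and 27% lower. One of the 3 higher ones is tetur22g00790, with its NON-DIA signal near background. The largest falls were close to 2-fold. Tetur05g03430, listed like the upregulated tetur05g05350 as a homologue of Plc21C, had log2 ratios of -0.91, -0.74, -1.24 and -1.07, a mean of -0.99 ± 0.217 (SD, n = 4; limma, adjusted p = 0.000919). The homologues of a single fly query thus differed in direction. Tetur20g01350, a homologue of small wing, had log2 ratios of -0.79, -0.98, -1.03 and -0.99, a mean of -0.95 ± 0.106 (SD, n = 4; limma, adjusted p = 0.000368). Its relative tetur04g06500 had the opposite sign, 0.75 ± 0.077 (SD, n = 4; limma, adjusted p = 0.000522). Tetur08g04770, the homologue of norpA, the phospholipase C of fly phototransduction, had a mean of -0.33 ± 0.075 (SD, n = 4; limma, adjusted p = 0.00676), with 1 of its 3 probes shared with another gene.

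The 3 other INPP5 genes had smaller log2 ratios in size than tetur08g02900. Tetur16g01280 had a mean log2 ratio of 0.46 ± 0.107 (SD, n = 4; limma, adjusted p = 0.00309). Tetur08g06610 had -0.24 ± 0.117 (SD, n = 4; limma, adjusted p = 0.0293), and tetur30g02210, named synaptojanin, a phosphatase of phosphoinositides known from synaptic vesicle recycling, had -0.34 ± 0.139 (SD, n = 4; limma, adjusted p = 0.0135). The small falls of tetur04g01040, tetur08g04770, tetur08g06610 and tetur30g02210 turned to means of 0.11, 0.03, 0.12 and 0.03 respectively after scaling to the spike-in controls. None of these 4 means passed the threshold on that scale (limma, adjusted p = 0.766 to 0.947). Each of these genes was negative on replicates 1 and 3 there and positive on replicates 2 and 4. The INPP5 genes tetur08g02900 and tetur16g01280 stayed higher on the spike-in scale, at means of 1.66 and 0.82. On the software's scale 2 of the 4 INPP5 genes were positive and 2 negative.

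**Figure D4:**
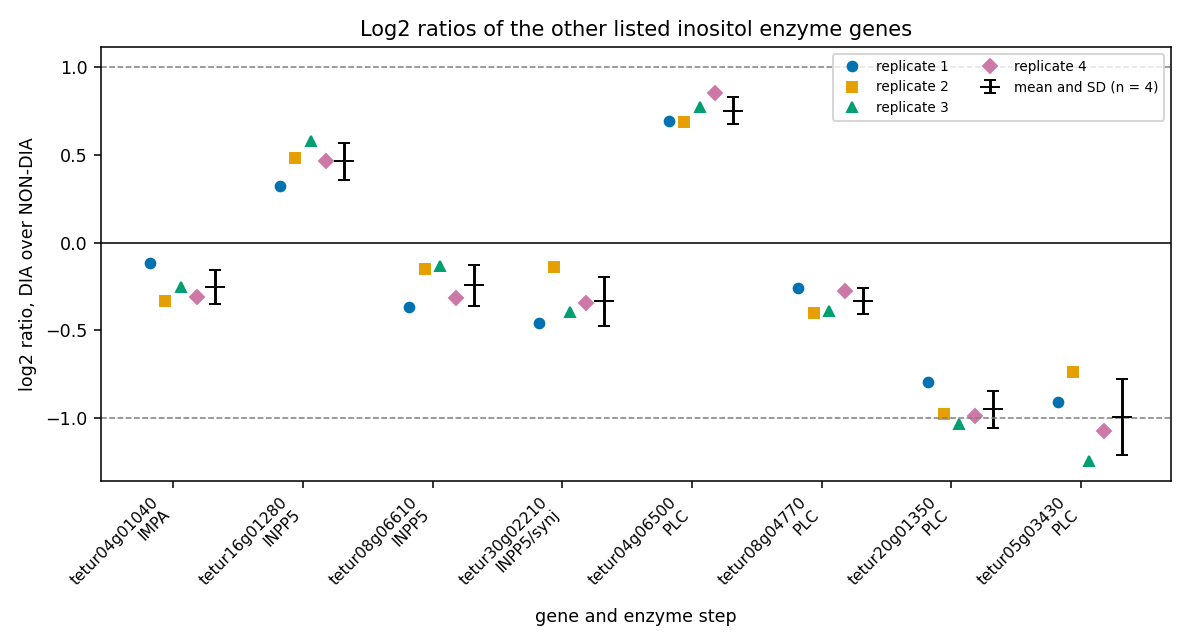
Log2 ratio of DIA over NON-DIA on each of the 4 arrays, with mean and SD, for the 8 tested genes of the study's homologue list that are not among the 8 genes described above. Dashed lines mark 2-fold. Tetur20g01350 and tetur05g03430 lie near the lower line, at means of -0.95 and -0.99, and tetur04g06500 is the highest at 0.75.

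The genes whose log2 ratios over the 4 arrays lay nearest to those of 3 members were found among 14978 non-member genes by Euclidean distance. Nearest to tetur32g01900 were tetur04g07320 (distance 0.0887), tetur29g00940 (0.0948) and tetur21g02420 (0.0958). Nearest to MIOX were tetur09g02430 (0.503), tetur21g00550 (0.504) and tetur21g01600 (0.515). Their smallest fall was on replicate 4, like that of MIOX, which follows from choosing them by these same ratios. Nearest to tetur05g05350 were tetur01g07680 (0.106), tetur31g01980 (0.112) and tetur01g16505 (0.115). Even the nearest gene to MIOX was thus farther away than the third nearest of the other 2, on a scale of log2 units over 4 arrays.

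Genes with IDs near those of tetur32g00400 and tetur32g01900 were counted as well. Over all genes tested, 9.04% were called upregulated and 9.1% downregulated, so few or no calls among so few neighbours is near those shares. Whether neighbouring genes change together was not tested. Of the 7 array genes numbered from tetur32g00380 to tetur32g00460 other than tetur32g00400 and tetur32g00440, all were tested and none was called. Their mean log2 ratios ran from -0.30 to 0.22, where tetur32g00400 stood at 0.97. Of the 6 array genes nearest in number to tetur32g01900, 4 were tested, none was called upregulated and 1 was called downregulated, tetur32g01910 at -1.61.

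The arrays were alike in quality. The DIA channel was well above background at 69.2% to 72.1% of gene spots and the NON-DIA channel at 67.2% to 69.5%, no gene spot was saturated, and 49 to 114 were marked as outliers per array. The log2 ratios of 2 arrays correlated over all genes at Pearson's r of 0.877 to 0.914, where genes are not independent replicates. The spike-in controls split the arrays by their column on the slide, with a log2 offset of -0.03 and 0.13 on replicates 1 and 3 and of -0.74 and -0.81 on replicates 2 and 4, and its part in the ratios was not tested beyond the values given here. On the spike-in scale the median of all genes moved from 0.11 to 0.47. On that scale the log2 ratio of tetur32g01900 was 1.00, 1.73, 0.87 and 1.92 on replicates 1 to 4, and that of MIOX was -1.88, -1.62, -3.01 and -0.46. The rise of the one and the fall of the other thus kept their sign on every array. Within slide column 1 and column 2 alone, the mean log2 ratio on the software's scale was 0.99 and 1.05 for tetur32g01900, -2.40 and -1.82 for MIOX, 1.07 and 1.05 for tetur05g05350, and 1.35 and 1.24 for tetur08g02900.

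**Figure D5:**
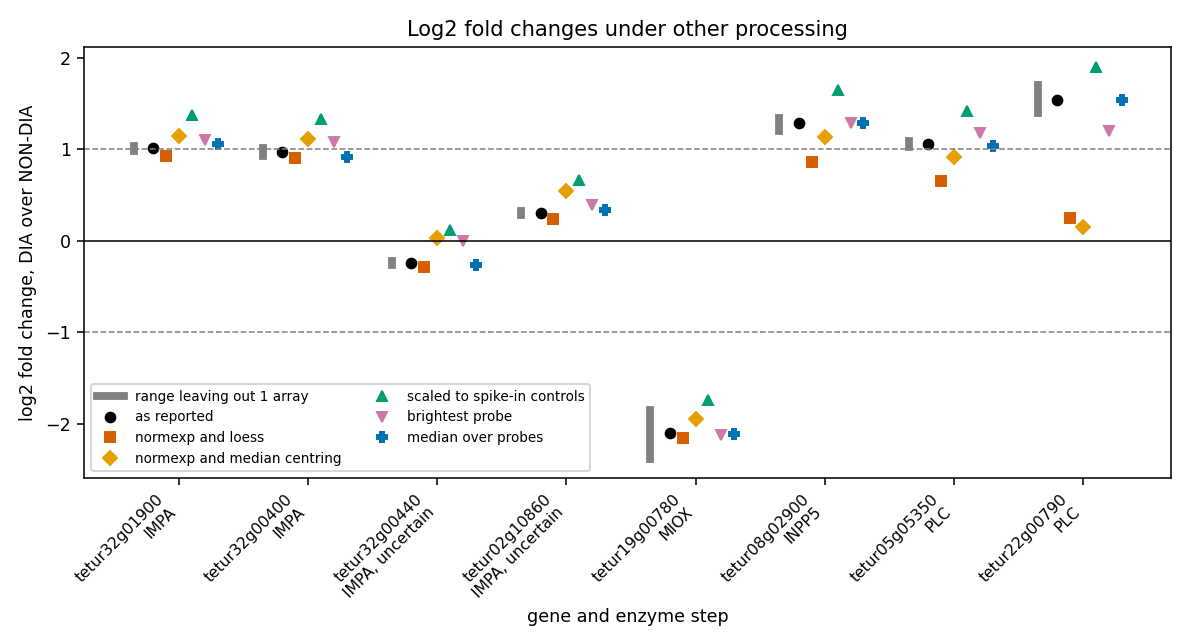
Mean log2 fold change of DIA over NON-DIA for the 8 genes as reported (black circles) and under other processing (coloured symbols), with the range over the 4 fits that each leave out 1 array (grey bars). Dashed lines mark 2-fold. MIOX stays below the lower line throughout, tetur32g00440 crosses 0, and the dim gene tetur22g00790 falls to 0.25 and 0.16 with normexp background correction.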

How the data were processed

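The members and the gene lists were chosen with earlier results of these data known. The authors labelled, hybridized and scanned the arrays and extracted the images with Agilent Feature Extraction, whose version in the file headers is 10.7.1.1. For every spot, the deposited intensity values hold the median signal and median local background of either channel, and the processed signal, which is background-subtracted and dye-normalized within the array. The deposited log10 ratios (Cy5 over Cy3) were converted to log2. A second table deposited by the authors holds log2 values of the same ratios and was used as an alternative.

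Of 62976 spots per array, 1319 controls and the spots marked non-uniform or population outliers were left out. A probe was kept when 2 or more arrays had it well above background in DIA or NON-DIA, and the log2 ratios of a gene's probes were averaged. The mean ratio was tested against 0 with lmFit and eBayes of limma 3.58.1 (R 4.3.3), with 1 array as 1 observation and Benjamini-Hochberg adjustment over 14986 genes, or over 40346 probes. The code was tested on simulated data. The number of arrays limits the precision, and signal over background limits dim genes. The bound for tetur22g00790 came from separate channels after normexp (offset 50), loess and quantile normalization of the average intensities. Intervals of 95% use the SD over the 4 arrays.

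Named genes are the 8 members, the other genes of the study's homologue list, the 3 genes with the nearest pattern to 3 members, and neighbours by ID in counts, with tetur32g01910 named after its value was seen. Markers were 6 vitellogenin and 2 MSP300 genes. The 21 alternatives were other background and scaling methods, detection filters, probe summaries, tests, the slide position as covariate and the omission of single replicates. Each slide column alone was added after the data were seen. Figures were drawn with Python 3.11.15 and matplotlib 3.10.9. Sequences of the genes and probes were not used here.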

Additional observations from a re-analysis of the deposited data

How the results depend on the processing

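Over all genes, 2719 were called (1355 up, 1364 down), against 1141 with normexp and loess (337 up, 804 down), 1247 with normexp and median centring, and 1163 with a test for a change beyond 2-fold. Scaling to the spike-in controls gave 2788 up and 912 down. Separate channels with no replicate block, that is without the pairing by array, started from the normexp and loess values and gave the same number of calls, 1141, so dropping the pairing changed no count against that setting. The 4 upregulated members became 0 with normexp and loess (with the pairing by array or with no replicate block) and beyond 2-fold, and the 1 downregulated member became 0 beyond 2-fold, where MIOX had an adjusted p of 0.0536 by limma. The 22 member probes past the threshold became 1 beyond 2-fold. Among the other pathway genes, calls of upregulation went from 0 to 1 on the spike-in scale (tetur04g06500 at 1.11), and those of downregulation from 0 to 1 with the median over probes (tetur20g01350 at -1.03) and to 1 in slide column 1. The cause was not tested.

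Leaving out 1 replicate gave 2619 to 2735 calls over all genes, 3 to 5 upregulated members, 0 to 2 other genes called downregulated (1 without replicate 2, 2 without replicate 1) and 19 to 21 member probes. Of 167 values of members under the 21 alternatives, 144 kept their direction and their side of the threshold. The sign of tetur32g00440 turned to 0.028 with normexp and median centring, 0.12 on the spike-in scale and 7.86e-06 for the brightest probe, and that of tetur08g06610 to 0.014 and 0.12 under the first 2 of these. On the spike-in scale tetur04g01040 turned to 0.11, tetur08g04770 to 0.031 and tetur30g02210 to 0.027. The difference between tetur05g05350 and tetur22g00790, -0.48 on the software's ratios and resting on a level not above background, turned to 0.41 with normexp and loess or with separate channels, and to 0.76 with median centring. Tetur22g00790 had no value when detection in both channels was required.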
